A study of Mus musculus with 4 samples.

Results

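The genes described here build, cap, cut and decorate actin filaments: the actins themselves, the Arp2/3 complex and the factors that switch it on, the formins, the proteins that hold actin monomers, the capping, severing and disassembly proteins, and the tropomyosins and their caps. They were chosen by gene symbol, as a list of 59 symbols, and for each gene the brightest probe set annotated with that symbol alone was used. Of the 59 genes, 55 had such a probe set, among 22180 genes in all. *Actr2*, *Arpc3* and *Fmnl3* had no annotated probe set and *Arpc1b* had none that it did not share with another symbol, so these 4 genes were not analysed here. Counts below are over the 55 genes, of which 52 are described by role and 3 are counted only.

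Glomeruli of 3-week-old C57BL/6 mice were profiled on 4 arrays, 2 labelled control and 2 labelled *Gak*-KO. The *Gak*-KO mice had both alleles of *Gak* floxed (*Gak* fl/fl) and carried Pod-Cre, a Cre recombinase under the podocin promoter, which removes the floxed first coding exon of *Gak*, the cyclin G-associated kinase of clathrin-mediated trafficking, in podocytes only. They also carried Rosa-Dtr fl, a diphtheria toxin receptor allele at the Rosa locus. Controls were littermates with *Gak* fl/fl and no Cre, and whether they carried the receptor allele is not given in the sources used here. Each array held pooled glomerular RNA of 3 mice, so each group stood for 6 mice measured as 2 pools. Arrays numbered 1 were labelled male and arrays numbered 2 female, so array number and sex label cannot be told apart. The study's gene list names 2 batches without saying which arrays each held. If batch follows array number, as was inferred here, it cannot be told apart from them either. Because whole glomeruli were profiled, fewer cells of a type and less RNA per cell cannot be told apart for any value given here.

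Actin polymerizes from its barbed end, and starting a new filament is the slow step. The Arp2/3 complex starts branches on existing filaments, formins start and lengthen unbranched filaments, capping proteins stop growth, and cofilin and gelsolin cut filaments and recycle subunits. Tropomyosins lie along the filament and decide which of these proteins can reach it. Podocytes, the epithelial cells that wrap the glomerular capillaries, hold their foot processes with dense actin bundles, and inherited lesions of INF2 and of the crosslinker ACTN4 cause focal segmental glomerulosclerosis in humans.

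The label check and the background of the arrays bear on every gene. *Gak* itself had log2 signals of 8.25 and 8.35 in controls and 8.64 and 8.39 in *Gak*-KO. Its probe set was read in whole glomeruli and its probes were not placed relative to the deleted exon, so its signal says nothing about the genotype labels. *Xist*, made from inactive X chromosomes, was higher on the arrays labelled male (9.69 and 9.61) than on those labelled female (8.55 and 9.21), so the sex labels were not used. In every comparison below, the *Gak*-KO array was set against the control array of the same number, as pair 1 and pair 2. Podocyte markers, which bear on the tissue label, were measured for 10 of 12 genes, with summed linear signals of 3380 (pair 1) and 5710 (pair 2) in controls and 3320 and 6940 in *Gak*-KO. Proximal tubule markers, 10 of 10 measured, summed to 28900 and 17900 in controls and 27700 and 12000 in *Gak*-KO, so tubular RNA was present on all 4 arrays and was lower on the arrays numbered 2.

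No actin gene met the criterion for a change in *Gak*-KO glomeruli. The criterion was a Z-ratio beyond the methods' limit in the same direction in both pairs. A Z-ratio is the difference between the Z scores of a pair divided by the standard deviation of such differences over all genes, and the limit is the normal deviate of a 2-sided level of 0.05. A gene reached the limit at a log2 change of about 0.59 in pair 1, and of about 0.48 in pair 2. The count of actin genes called was 0 higher and 0 lower, against 113 genes called higher (0.509% of all genes) and 52 called lower (0.234%). With limma and the pair as a block, 0 of the 55 genes and 0 of 22180 genes (0%) had an adjusted p under 0.05, and the smallest adjusted p was 0.833. The unadjusted limma p was under 0.05 for 4 of the 55 actin genes, *Tpm1*, *Tpm3*, *Tpm4* and *Tmod3*, all with higher signals in *Gak*-KO. It was under 0.05 for 1204 of 22180 genes (5.43%), 641 of them higher (2.89%). Among genes above the median signal, it was under 0.05 for 4 of 48 actin genes and for 818 of 11090 genes, 460 of them higher. Without the block none of the 4 genes had an unadjusted limma p under 0.05 (*Tpm3* 0.0613, *Tpm4* 0.0891, *Tpm1* 0.318 and *Tmod3* 0.417), and 176 genes did. With 2 arrays per group an exact permutation test of a single gene cannot go below p = 0.333.

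Below the criterion, the actin genes lay more often on the higher side in both pairs than genes at large. Signals were higher in *Gak*-KO in both pairs for 27 of 55 genes (49.1%), against 22.3% of all genes and 28.4% of genes above the median signal. They were lower in both pairs for 6 genes (10.9%), against 24.3% of all genes and 24.9% of those above the median signal. The median log2 change was 0.08 in pair 1 and 0.12 in pair 2, where the median of all genes was 0.00 in each. Both *Gak*-KO arrays lay above both control arrays for 13 genes (23.6%), against 8.8% of all genes and 11.6% of those above the median signal. Among them were *Actg1*, *Arpc2*, *Arpc5*, *Wasl*, *Wasf2*, *Diaph2*, *Pfn1*, *Cap2*, *Cfl1*, *Coro1c*, *Tpm3* and *Tpm4*. Both lay below for 2 genes, *Arpc1a* and *Fhod3*, against 8.22%. These shares are descriptions of a list whose genes are expressed together, and they carry no test. The changes in the 2 pairs, taken with their signs, were almost uncorrelated across the 55 genes (Pearson's r = 0.03). The genes are not independent replicates and share the arrays.

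**Figure D1:**
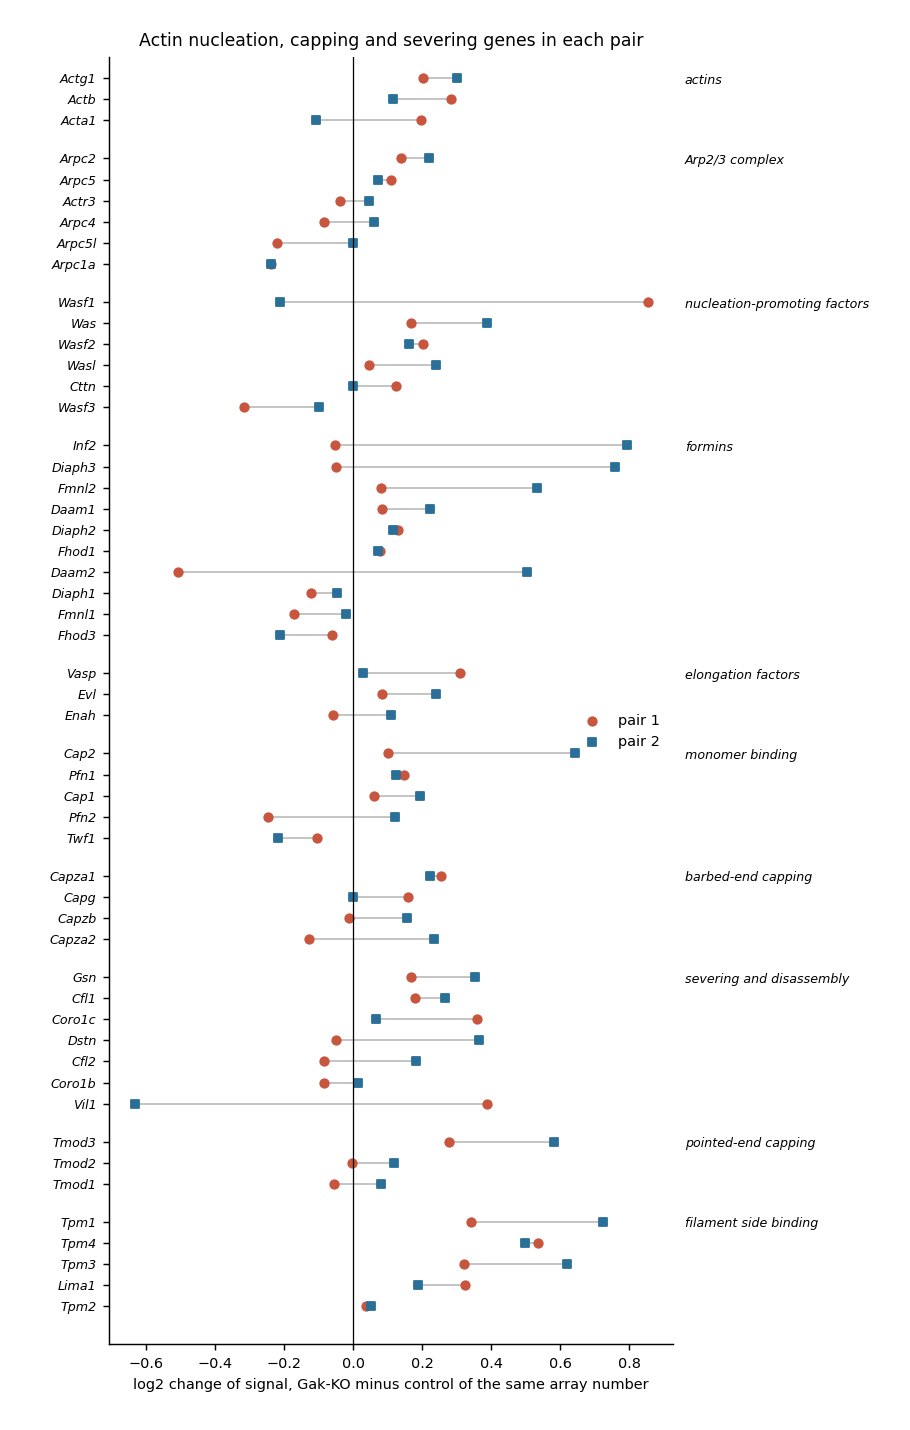
Log2 change in *Gak*-KO glomeruli for the 52 actin genes described by role, with 1 point for pair 1 (circle) and 1 for pair 2 (square). Each gene's points are joined by a grey line. The side-binding genes at the bottom lie to the right of 0 in both pairs, while *Daam2*, *Vil1*, *Wasf1*, *Inf2* and *Diaph3* have long lines that cross 0.

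The difference between arrays numbered 1 and arrays numbered 2 was larger than the difference between genotypes for 37 of the 55 genes, against 73.9% of all genes. *Daam2* (1.40 on the log2 scale, arrays 2 minus arrays 1), *Tmod3* (1.01), *Fmnl2* (1.01) and *Tpm1* (0.99) were higher on the arrays numbered 2. *Vil1* (-1.39) and *Acta1* (-0.76) were lower there. Podocyte markers differed in the same direction, with a median of 1.25 over the 10 markers, and proximal tubule markers in the other, with a median of -1.14. The part of these cell types in the actin genes' values was not tested.

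The tropomyosins, the coiled-coil proteins that lie along the actin filament, had the largest mean changes of the list on the probe sets used, an order that does not hold for *Tpm3* and *Tpm4* on other probe sets, as given below. *Tpm1* had log2 signals of 6.98 and 7.77 in controls and 7.32 and 8.50 in *Gak*-KO. The *Gak*-KO array was the higher one in both pairs, but arrays 2 lay above arrays 1 by more than that, so the groups overlapped. The log2 change was 0.34 in pair 1 and 0.72 in pair 2, a mean of 0.53 (SE 0.14, limma unadjusted p = 0.030), or 1.45-fold, with Z-ratios of 1.09 and 2.90. *Tpm4* had signals of 8.54 and 8.95 in controls and 9.07 and 9.45 in *Gak*-KO. The groups of *Tpm4* did not overlap, and its 2 pairs were alike. Its changes of 0.54 and 0.50 gave a mean of 0.52 (SE 0.10, limma unadjusted p = 0.010) and Z-ratios of 1.68 and 1.957, so that it fell just short of the limit in pair 2. *Tpm3* had signals of 7.15 and 6.87 in controls and 7.48 and 7.49 in *Gak*-KO. Again no *Gak*-KO array was as low as a control array, and the changes of 0.32 and 0.62 averaged 0.47 (SE 0.13, limma unadjusted p = 0.030). *Tpm2*, the tropomyosin best known from muscle, showed almost no difference, with signals of 4.68 and 4.95 in controls and 4.72 and 5.005 in *Gak*-KO. All 4 tropomyosins were thus higher in both pairs as deposited, although the mean change of *Tpm2* (0.04) turned to -0.01 after quantile normalization.

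The values of *Tpm3*, *Tpm4* and *Actg1* rest on probe sets whose place in the genome is in doubt. Probe set numbers of this array run along the chromosomes, and for these 3 genes alone, of 55, fewer than 6 of the 10 nearest annotated probe sets belonged to genes of the same chromosome. The count was 0 of 10 for each. The actin and tropomyosin families have processed copies elsewhere in the mouse genome, and signal from a copy and from the gene itself cannot be told apart here. For *Tpm4*, the probe set numbered among genes of its own chromosome (8) had signals of 7.48 and 7.49 in controls and 7.72 and 7.75 in *Gak*-KO. It was also higher in both pairs, at 0.24 and 0.25. For *Tpm3*, the corresponding probe set had signals of 4.52 and 3.81 in controls and 5.05 and 3.80 in *Gak*-KO, so the change was 0.53 in pair 1 and -0.01 in pair 2. On these probe sets the mean changes of *Tpm3* (0.26) and *Tpm4* (0.25) lay below that of *Tmod3* (0.43). With these probe sets the unadjusted limma p was under 0.05 for *Tpm1* and *Tmod3* only.

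**Figure D2:**
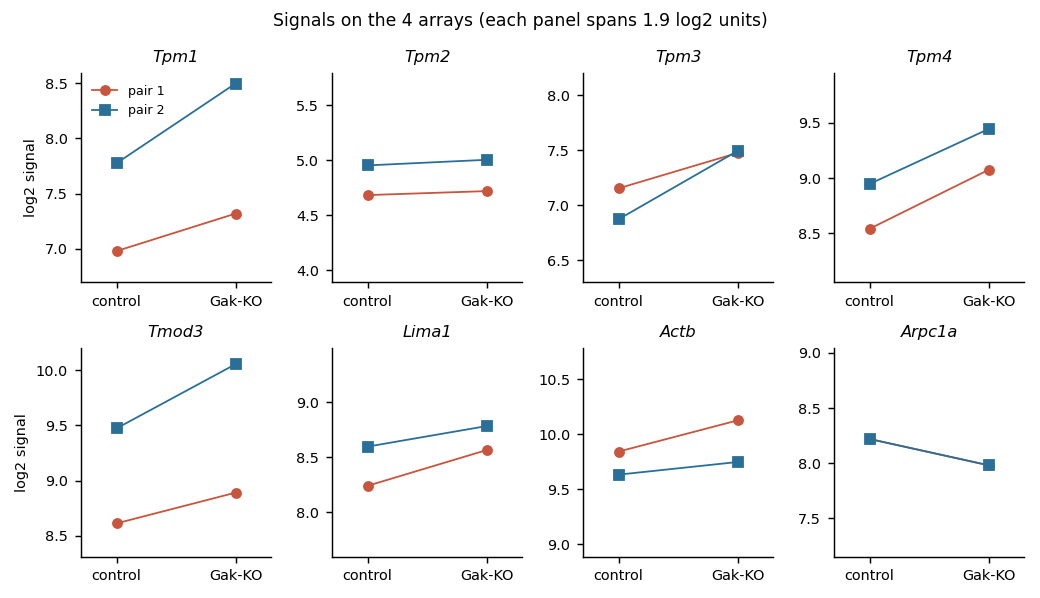
Log2 signal (vertical axis) of 8 actin genes on the control and *Gak*-KO array of pair 1 (circles) and pair 2 (squares), 1 array per point and lines joining arrays of a pair. The lines of *Tpm1*, *Tpm3*, *Tpm4* and *Tmod3* slope up in both pairs by 0.28 to 0.72, those of *Tpm2* are nearly flat, and those of *Arpc1a* slope down on top of each other.

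The starts of 3 tropomyosin genes are shown to set *Tpm1* and *Tpm4* beside *Tpm2*, whose signals hardly differed. Each sequence runs from 250 bases before to 50 bases after the RefSeq start (build GRCm38.p6), 5′ to 3′ on the gene's strand. Capitals mark an MCAT element, CATTCC or its reverse complement GGAATG, the site of TEAD factors in muscle and cytoskeletal genes. *Tpm1* lies at chr9:67049164-67049463 on the minus strand, *Tpm2* at chr4:43523505-43523804 on the minus strand and *Tpm4* at chr8:72135038-72135337 on the plus strand.
Tpm1: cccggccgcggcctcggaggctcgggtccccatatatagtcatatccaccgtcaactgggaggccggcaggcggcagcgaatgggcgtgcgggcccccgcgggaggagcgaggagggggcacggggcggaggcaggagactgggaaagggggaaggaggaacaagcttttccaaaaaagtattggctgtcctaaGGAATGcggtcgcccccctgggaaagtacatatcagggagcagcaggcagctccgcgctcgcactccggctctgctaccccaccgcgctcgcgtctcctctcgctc
Tpm2: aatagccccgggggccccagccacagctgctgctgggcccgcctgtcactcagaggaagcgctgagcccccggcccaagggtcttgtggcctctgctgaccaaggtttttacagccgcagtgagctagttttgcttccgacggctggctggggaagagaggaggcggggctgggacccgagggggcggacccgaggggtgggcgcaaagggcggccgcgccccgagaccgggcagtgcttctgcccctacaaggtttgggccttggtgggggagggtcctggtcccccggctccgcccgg
Tpm4: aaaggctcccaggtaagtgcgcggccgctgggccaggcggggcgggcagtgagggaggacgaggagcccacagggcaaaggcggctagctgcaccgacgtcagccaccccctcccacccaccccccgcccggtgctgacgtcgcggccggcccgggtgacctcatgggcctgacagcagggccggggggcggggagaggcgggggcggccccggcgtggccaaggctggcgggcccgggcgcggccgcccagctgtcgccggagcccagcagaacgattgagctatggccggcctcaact
*Tpm1* held 1 MCAT element and *Tpm2* and *Tpm4* held none. *Tpm3*, whose start is not shown, also held none. The element was found in 14.7% of 32851 promoters of this length and in 10 of the 56 promoters of actin genes. These belong to 8 of the 47 actin genes with a promoter. A match of letters is a description and not a binding site.

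*Tmod3*, the ubiquitous tropomodulin, caps the pointed end of tropomyosin-coated filaments. Its signals were 8.61 and 9.47 in controls and 8.89 and 10.06 in *Gak*-KO. As for *Tpm1*, the *Gak*-KO array was higher in both pairs and the groups overlapped. The changes of 0.28 and 0.58 averaged 0.43 (SE 0.13, limma unadjusted p = 0.038), with Z-ratios of 0.83 and 2.29. *Tmod1*, the tropomodulin first known from the red cell membrane, had signals of 5.56 and 5.41 in controls and 5.50 and 5.49 in *Gak*-KO, with changes of -0.06 and 0.08. Its mean of 0.01 was below 0 after quantile normalization and after median centring. *Lima1* (Eplin), which binds along filaments and slows their disassembly, was higher in both pairs by 0.32 and 0.19 (mean 0.26, SE 0.10). Among the side-binding genes, 5 of 5 were thus higher in both pairs, or 4 of 5 on own-chromosome probe sets. The share over all genes was 22.3%, and 0 side-binding genes were called.

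When the pairing was ignored and the Z-ratio was taken between group means, *Tpm1* (2.51), *Tpm4* (2.39), *Tpm3* (2.23) and *Tmod3* (1.964, just past the limit) were beyond the limit. That made 4 of 55 actin genes higher and 0 lower, against 2.93% and 2.48% of all genes.

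The actins, the subunits of the filament, had small changes that did not pass the test. *Actb*, the cytoplasmic beta-actin, had signals of 9.84 and 9.63 in controls and 10.13 and 9.75 in *Gak*-KO, a mean change of 0.20 (SE 0.11). The groups overlapped, since the *Gak*-KO array of pair 2 lay below the control array of pair 1. *Actg1*, the cytoplasmic gamma-actin, had signals of 10.50 and 10.27 in controls and 10.70 and 10.57 in *Gak*-KO, a mean change of 0.25 (SE 0.10), with no overlap. On the brighter of its 2 probe sets numbered among genes of its own chromosome (11) the changes were -0.20 and 0.09. On the dimmer one they were 0.40 and -0.17, with a mean of 0.12. Its probe sets numbered among genes of other chromosomes were all higher in both pairs. The direction of *Actg1* thus depends on the probe set. *Acta1*, the skeletal muscle actin, had signals of 5.29 and 4.68 in controls and 5.48 and 4.57 in *Gak*-KO. Its pairs differed in sign, at 0.20 and -0.11. Skeletal muscle markers, 6 of 6 measured, had medians of 0.11 and -0.07, and their part in the value of *Acta1* was not tested.

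*Actg1* and *Acta1* are known targets of serum response factor, which binds the CArG box. Their starts are shown with CArG boxes and MCAT elements in capitals, for *Actg1* at chr11:120348446-120348745 and for *Acta1* at chr8:123894726-123895025, both on the minus strand of GRCm38.p6.
Actg1: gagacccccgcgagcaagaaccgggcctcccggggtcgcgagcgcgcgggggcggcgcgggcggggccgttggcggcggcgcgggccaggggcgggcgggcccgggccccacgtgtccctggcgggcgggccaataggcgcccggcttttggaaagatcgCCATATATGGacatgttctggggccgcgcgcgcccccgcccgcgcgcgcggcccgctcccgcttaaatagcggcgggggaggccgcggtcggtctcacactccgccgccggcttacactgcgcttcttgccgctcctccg
Acta1: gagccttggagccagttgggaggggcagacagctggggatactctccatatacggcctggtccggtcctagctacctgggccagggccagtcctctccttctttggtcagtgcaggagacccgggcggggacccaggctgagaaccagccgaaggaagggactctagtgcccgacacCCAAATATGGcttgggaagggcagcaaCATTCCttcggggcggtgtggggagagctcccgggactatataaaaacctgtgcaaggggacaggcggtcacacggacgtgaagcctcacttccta
The CArG box began 90 bases before the start in *Actg1* and 73 bases before it in *Acta1*, where an MCAT element followed. A CArG box was found in 1.63% of 32851 promoters and in 5 of the 56 promoters of actin genes. These belong to 5 of the 47 actin genes with a promoter. The 5 genes differed in sign. The mean log2 change of *Actg1* was 0.25, with -0.05 and 0.12 on its brighter and dimmer own-chromosome probe sets. Mean log2 changes were 0.26 for *Lima1*, 0.04 for *Acta1*, -0.01 for *Arpc4* and -0.12 for *Vil1*.

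The Arp2/3 complex, the nucleator of branched networks, was measured through 6 of its 9 listed genes, and their changes were small and of both signs. *Arpc1a*, a WD-repeat subunit, had signals of 8.22 and 8.22 in controls and 7.98 and 7.98 in *Gak*-KO. It had the lowest mean change of the complex, at -0.24 in both pairs, and its groups did not overlap. Across the 55 genes this is also the change that varied least between the pairs. The methods name a t-test for comparisons between groups but call array genes by the Z-ratio. Applied here to the array values and adjusted over all genes, that t-test gave *Arpc1a* an adjusted p of 0.0387. It ignores the pairing and takes the spread from this gene's arrays alone. With limma, which kept the pair as a block and moderates the spread over all genes, the SE was 0.10 and the unadjusted p = 0.082. *Arpc2*, which with *Arpc4* forms the core of the complex, had signals of 10.34 and 10.33 in controls and 10.48 and 10.55 in *Gak*-KO. The groups of *Arpc2* did not overlap, and its changes of 0.14 and 0.22 averaged 0.18 (SE 0.10). *Arpc5* was higher in both pairs, by 0.11 and 0.07, on its brighter probe set and lower in both, by 0.29 and 0.34, on the dimmer one. *Actr3*, *Arpc4* and *Arpc5l* had mean changes between -0.11 and 0.00.

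The nucleation-promoting factors, which switch on Arp2/3, were uneven. *Wasf1* (WAVE1) had signals of 3.70 and 3.88 in controls and 4.55 and 3.67 in *Gak*-KO. Only the *Gak*-KO array of pair 1 stood apart, so the Z-ratio was 2.88 in pair 1 and -0.83 in pair 2. *Wasf2* (WAVE2), the broadly expressed form, was higher by 0.20 and 0.16 without overlap (mean 0.18, SE 0.10), and *Wasl* (N-WASP) by 0.05 and 0.24, also without overlap. *Wasf3* had signals of 4.84 and 5.24 in controls and 4.53 and 5.14 in *Gak*-KO, the lowest mean change of this group (-0.21, SE 0.11). *Was*, the form of blood cells, was higher by 0.17 and 0.39, on low signals of 3.38 to 3.99. Macrophage markers, 10 of 10 measured, summed to 280 and 304 in controls and 316 and 446 in *Gak*-KO. Of the 10, 5 were higher in both pairs, with *Cd68* and *Mpeg1* called. *Adgre1* was lower in both (-0.10 and -0.13), and 4 differed in sign between the pairs. The part of macrophages in the value of *Was* was not tested. *Cttn* (cortactin), which stabilizes branches, had changes of 0.12 and 0.00.

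The formins, nucleators of unbranched filaments, differed between the pairs. Over the 10 formins measured, the median change was -0.05 in pair 1 and 0.17 in pair 2, and 4 of them lay above the limit in pair 2 alone. Of all genes, 3.01% were above it in pair 2 and 9.18% were beyond it in exactly 1 pair. *Inf2*, a formin that both builds and severs filaments, had signals of 5.84 and 6.11 in controls and 5.78 and 6.90 in *Gak*-KO. Its *Gak*-KO array of pair 2 was the only high one, with a change of 0.79 (Z-ratio 3.23) against -0.05 in pair 1. *Diaph3*, a formin linked to cell division, had signals of 5.48 and 5.13 in controls and 5.42 and 5.89 in *Gak*-KO. Its pattern was that of *Inf2*, at -0.05 and 0.76. *Fmnl2*, which lengthens filaments in protrusions, had signals of 5.59 and 6.37 in controls and 5.67 and 6.91 in *Gak*-KO, with changes of 0.08 and 0.53 and a mean of 0.31 (SE 0.16). *Daam2*, a formin of Wnt signalling, had signals of 6.52 and 7.42 in controls and 6.01 and 7.92 in *Gak*-KO. The *Gak*-KO array was the lower one of pair 1 and the higher one of pair 2, so that changes of -0.51 and 0.50 cancelled in the mean (0.00, SE 0.30).

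*Fhod3*, a formin of sarcomeres, had signals of 7.74 and 7.71 in controls and 7.67 and 7.50 in *Gak*-KO. Its groups did not overlap, and the mean change of -0.14 (SE 0.10) was the lowest among formins. *Diaph1*, *Diaph2*, *Daam1*, *Fmnl1* and *Fhod1* had mean changes between -0.10 and 0.15. Of the formins, 4 of 10 were higher in both pairs and 3 were lower in both, against 22.3% and 24.3% of all genes.

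The split of *Daam2* between the pairs had the signs of that of the podocyte markers. *Inf2* and *Diaph3* hardly differed in pair 1 (-0.05 each), and *Fmnl2* was higher in both pairs (0.08 and 0.53). The 10 podocyte markers had a median change of -0.30 in pair 1 and 0.20 in pair 2, and the 8 endothelial markers of -0.22 and 0.24. The part of either cell type in the values of *Daam2*, *Inf2*, *Fmnl2* and *Diaph3* was not tested. *Vil1* (villin), which severs and bundles filaments in the brush border of the proximal tubule, had signals of 8.29 and 7.41 in controls and 8.68 and 6.77 in *Gak*-KO. It was 0.39 higher in pair 1 and 0.63 lower in pair 2, with Z-ratios of 1.20 and -2.63. It is itself 1 of the 10 proximal tubule markers, which had medians of -0.01 and -0.63, and the part of tubular RNA in its value was not tested.

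**Figure D3:**
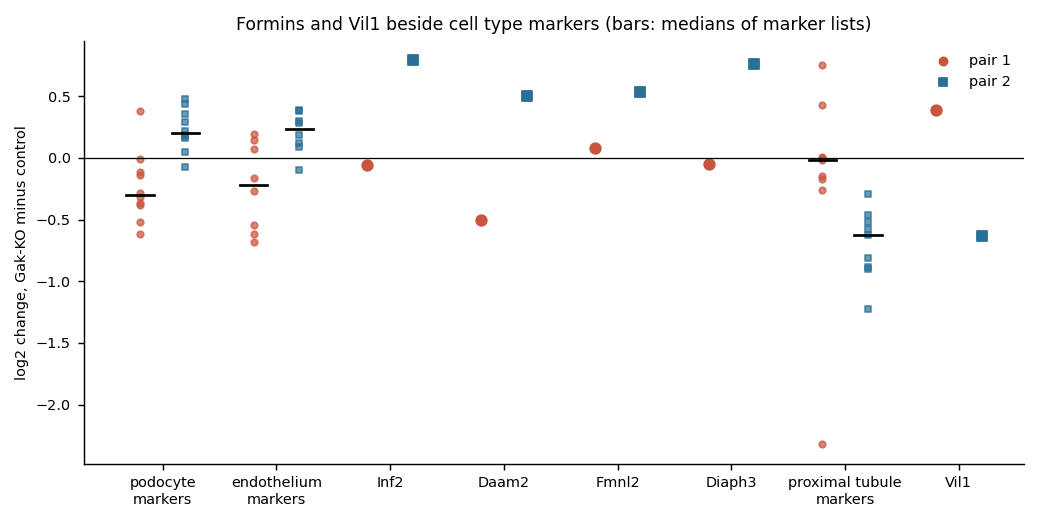
Log2 change in *Gak*-KO glomeruli (vertical axis) in pair 1 (circles) and pair 2 (squares) for 4 formins and *Vil1* (large symbols) beside podocyte, endothelial and proximal tubule markers (small symbols, 1 per gene, black bars at the medians, *Vil1* left out of the tubule markers). *Daam2* and the median of the podocyte markers lie below 0 in pair 1 and above it in pair 2, and *Vil1* lies below 0 in pair 2 with all the tubule markers.

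Of the genes that supply monomers, 3 of 5 were higher in both pairs, against 22.3% of all genes, and 0 were called. *Cap2*, a cyclase-associated protein that recharges monomers released by cofilin, had signals of 4.28 and 4.19 in controls and 4.38 and 4.83 in *Gak*-KO. Its groups did not overlap, but the change came mostly from pair 2, at 0.64 (Z-ratio 2.65) against 0.10. *Pfn1* (profilin-1), the main carrier of monomers to formins, was higher by 0.15 and 0.12 without overlap, a mean of 0.14 (SE 0.10). *Twf1* (twinfilin-1), which sequesters monomers and removes capping protein, had signals of 9.72 and 9.27 in controls and 9.61 and 9.05 in *Gak*-KO, lower in both pairs by a mean log2 change of -0.16 (SE 0.10).

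The elongation factors *Enah*, *Vasp* and *Evl* keep barbed ends growing. Of the 3, 2 were higher in both pairs, against 22.3% of all genes. *Vasp* had signals of 6.83 and 6.52 in controls and 7.14 and 6.55 in *Gak*-KO, almost all of its change lying in pair 1 (0.31 against 0.03). *Enah* (Mena) had signals of 7.14 and 7.35 in controls and 7.09 and 7.46 in *Gak*-KO, with changes of -0.06 and 0.11.

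Capping of the barbed end was measured through both alpha subunits and the beta subunit of capping protein and through *Capg*. *Capza1* had signals of 8.05 and 8.45 in controls and 8.31 and 8.68 in *Gak*-KO, with changes of 0.25 and 0.22 (mean 0.24, SE 0.10). A second probe set of *Capza1*, with signals of only 2.85 to 3.39 and 0 of 10 neighbours on the gene's chromosome, had changes of -0.54 and -0.07, and the mean of both probe sets gave -0.03. *Capza2*, the other alpha subunit, had signals of 7.93 and 7.52 in controls and 7.80 and 7.75 in *Gak*-KO, so its pairs differed in sign. *Capzb* had changes of -0.01 and 0.16. *Capg*, the gelsolin-like cap of macrophages, had changes of 0.16 and 0.00.

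Among the 7 severing and disassembly genes, 3 were higher in both pairs and 0 were lower in both, against 22.3% and 24.3% of all genes. *Gsn* (gelsolin), which severs filaments in response to calcium, had signals of 8.65 and 8.89 in controls and 8.82 and 9.24 in *Gak*-KO. Its changes of 0.17 and 0.35 averaged 0.26 (SE 0.11), and the groups overlapped. *Cfl1*, the non-muscle cofilin, was higher by 0.18 and 0.27 (mean 0.22, SE 0.10) without overlap. *Coro1c*, a coronin, was higher by 0.36 and 0.07 without overlap on its brighter probe set and lower on its dimmer one. *Dstn*, *Cfl2* and *Coro1b* had pairs of opposite sign.

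**Figure D4:**
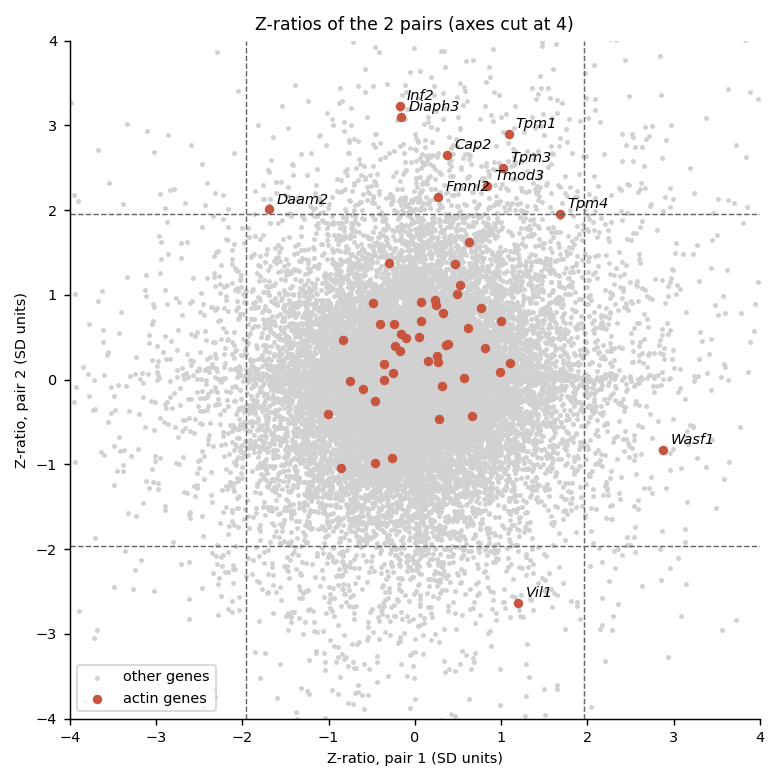
Z-ratio of pair 1 (horizontal axis) against pair 2 (vertical axis), in SD units, for the 55 actin genes (red) and all other genes (grey), with dashed lines at the limit. No actin gene lies beyond the lines in the same direction in both pairs, 10 lie beyond in 1 pair, and *Tpm4* sits on the line of pair 2.

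In all, 10 of the 55 genes (18.2%) were beyond the limit in exactly 1 pair, against 9.18% of all genes. Only *Wasf1* was beyond it in pair 1. In pair 2, 8 genes were above it and *Vil1* was below it, against 3.01% of all genes above and 2.96% below. Deposited values were equal on both arrays of pair 2 for *Arpc5l*, *Cttn* and *Capg*, to the last digit, and for 10.4% of all genes.

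Genes around the list were taken from 6 groups, 95 of whose 105 genes were measured. Of these 95, 4 were called higher and 0 lower, against 0.509% and 0.234% of all genes. All 4 belong to the filament crosslinkers and bundlers. *Actn1* (alpha-actinin-1) changed by 0.91 and 0.71, *Pdlim7*, a LIM protein of stress fibres, by 0.74 and 0.93, *Tagln* (transgelin) by 0.62 and 1.29, and *Flna* (filamin A) by 0.74 and 0.50. Of the 19 crosslinkers measured, 13 were higher in both pairs, against 22.3% of all genes, with a median mean change of 0.18. *Pls1*, the plastin of brush borders, was lower by 0.44 and 0.45 without being called. *Tagln* is also a marker of mesangium and smooth muscle, as is *Acta2*. The 9 measured markers of 10, with these genes among them, summed to 1640 and 1880 in controls and 2290 and 2240 in *Gak*-KO. Of the 9, 5 were higher in both pairs, *Pdgfrb* was lower in both (-0.13 and -0.18), and 3 differed in sign between the pairs. The part of such cells in the values of the crosslinkers was not tested.

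The other 5 groups had no called gene. *Acta2*, the smooth muscle actin, was higher by 0.81 and 0.30 and *Actg2* by 0.26 and 0.74. The other capping, severing and disassembly genes had a median of -0.02. Of the 26, 6 were higher in both pairs and 8 lower in both, against 22.3% and 24.3% of all genes. *Coro2a* was highest (0.82 and 0.04) and *Coro2b* next (0.43 and 0.31), while *Scin*, a gelsolin relative that severs filaments, was lowest (-0.39 and -0.29), with both *Gak*-KO arrays below both controls. The other nucleators had a median of -0.02, with *Spire1* at 0.02 and 0.29 and *Grid2ip* at 0.00 and -0.30. The kinases and phosphatases upstream of cofilin had a median of 0.03, with *Ssh2*, a cofilin phosphatase, at 0.52 and 0.16 and the kinase *Pak4* at -0.24 and 0.00. The other Arp2/3, WASP and WAVE partners had a median of 0.10 over 23 genes. Of the 23, 10 were higher in both pairs, against 22.3% of all genes. *Cttnbp2nl* was at 0.17 and 0.49 and *Wipf1* at 0.61 and 0.00.

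**Figure D5:**
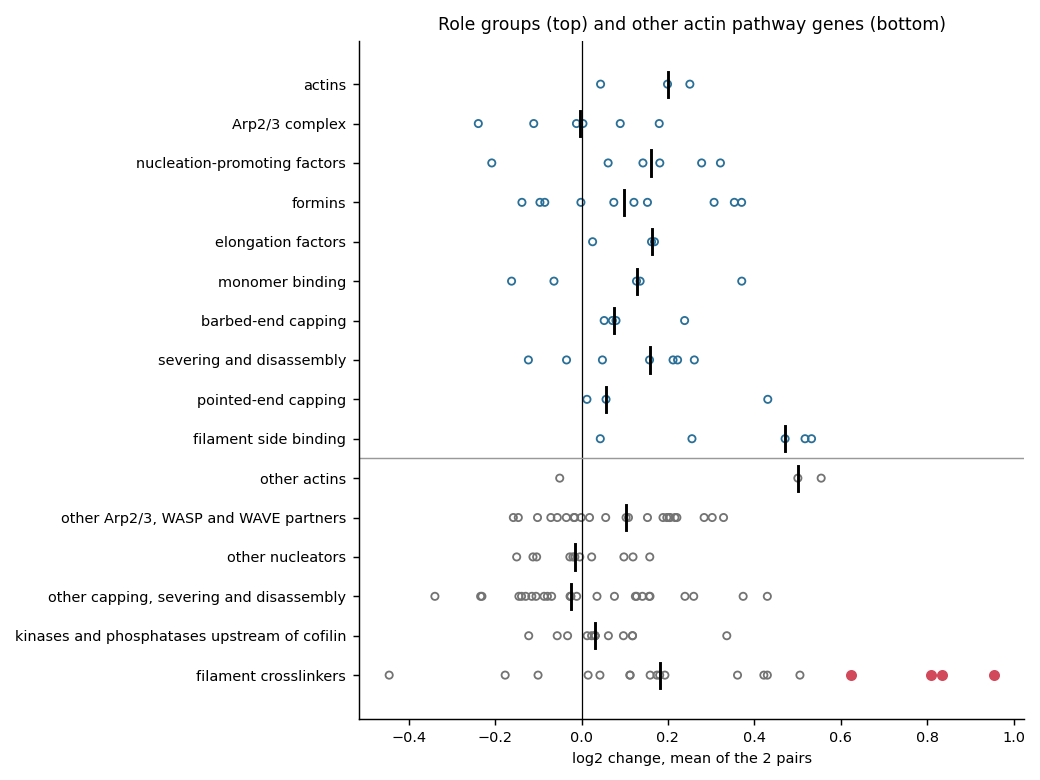
Mean log2 change of the 2 pairs (horizontal axis) for each gene of the 10 role groups of the actin list (top) and of the 6 surrounding groups (bottom). Open circles are genes not called, filled red circles the 4 called genes, and black bars group medians. The side-binding group has the highest median of the role groups (0.47, or 0.26 on own-chromosome probe sets), and all called genes lie among the crosslinkers.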

How the data were processed

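The authors deposited log2 signals of 41345 probe sets on 4 arrays, and RMA and limma are named in the submitters' processing notes. Versions are not given in the sources used here. Probe set numbers are of a whole-transcript array, while the methods name the 430 2.0 array. The 22180 genes were taken from the 23521 probe sets annotated with 1 symbol, using the brightest per gene. Of the 55 actin genes, 47 had 1 probe set.

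Z-ratios followed the methods' limit of 1.96. A gene was called when beyond it in the same direction in both pairs, and no p attaches to that call. Log2 changes, SE and Benjamini-Hochberg adjusted p over 22180 genes came from limma 3.58.1 (R 4.3.3) with the array number as a block. The study's gene list gives 1 Z-ratio for each of 2 batches, which is where the pairing comes from. It does not say which arrays each batch held, so pairing by array number is an inference. As a check, the distances of arrays of 1 number from their own group's mean were correlated, with r = 0.694 over all genes and 0.826 over the actin genes. The block left 1 residual degree of freedom and 2.24 prior ones. The number of arrays limits the precision. With the block, limma's p-values rest on how far the changes of the 2 pairs differ, moderated by the spread over all genes. They do not measure the whole spread between pools.

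The actin genes, their roles and all lists were chosen with earlier results of these data known. Arrays are given in full for genes beyond the limit in 1 pair, for genes with an unadjusted p under 0.05, for the actins and for the highest and lowest mean change of each role. Surrounding genes are named when called or among the 2 largest changes of their group, and *Pls1* and *Scin* were named after their values were seen. Alternatives covered pairing, normalization, probe sets, low signals, limits, tests and arrays left out. The choice of probe set by chromosome, and the counts of genes higher, lower, above or below in both pairs, were added after seeing the data. Promoters are of RefSeq, GRCm38.p6, with 47 genes matched, both strands searched. Of the list, 1 role group, and the surrounding group that goes with it, are not reported here.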

Additional observations from a re-analysis of the deposited data

Results flagged for a closer look

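For 5 actin genes the change lay beyond the Z-ratio limit in 1 pair and had the opposite sign in the other, so the pairs disagreed. This difference between the pairs was not tested. *Wasf1* was at 0.85 in pair 1 and -0.21 in pair 2 on the log2 scale. *Inf2* was at -0.0536 and 0.79, *Diaph3* at -0.0509 and 0.76, *Daam2* at -0.51 and 0.50, and *Vil1* at 0.39 and -0.63. Every pair is 1 array against 1 array. Pair number, sex label and, if it follows array number, batch cannot be told apart.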

How the results depend on the processing

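The count of 0 called actin genes held under quantile normalization, median centring, the mean of a gene's probe sets, all probe sets, no low-signal genes, own-chromosome probe sets and a stricter limit. It was 4 with no replicate block, 1 (*Tpm4*) with a robust scale, and 1 (pair 1 alone) to 9 (pair 2 alone) with an array or pair left out. With no replicate block, or with an array or pair left out, a gene had a single Z-ratio. It then had to pass the limit once and not in both pairs, which is a looser criterion. Over all genes, 165 calls became 1199 with no replicate block, 328 over all probe sets, 59 at the stricter limit, 391 with a robust scale and 1108 to 1323 with an array or pair left out. With no replicate block, limma also made 0 calls, with 176 genes and 0 actin genes at an unadjusted p under 0.05 in place of 1204 and 4. limma's 0 calls became 1, on *Arpc1a*, under the t-test that was applied and adjusted here. The median change of the actin genes ranged from 0.0598 without *Gak*-KO array 2 to 0.1497 without *Gak*-KO array 1. Without 1 array, 20 to 34 actin genes had *Gak*-KO above all controls and 4 to 11 below, since fewer arrays were compared.

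Of 364 values of 26 named genes under alternatives, 37 changed sign, and 8 genes never did: *Actb*, *Arpc1a*, *Arpc2*, *Fhod3*, *Cap2*, *Gsn*, *Tpm3* and *Tpm4*. With all arrays kept, *Actg1* reversed to -0.0540 on its brighter own-chromosome probe set. *Capza1* reversed to -0.0343 for the mean of a gene's probe sets. The other reversals with all arrays kept were *Tmod1* at -0.0365 and *Tpm2* at -0.0109 under quantile normalization, and *Tmod1* at -0.00727 under median centring. With an array or pair left out, 16 genes changed sign, over these ranges of the log2 change: *Acta1* -0.41 to 0.50, *Wasf1* -0.21 to 0.85, *Wasf3* -0.52 to 0.0998, *Inf2* -0.19 to 0.93, *Diaph3* -0.0509 to 0.76, *Daam2* -0.96 to 0.95, *Fmnl2* -0.31 to 0.92, *Enah* -0.16 to 0.21, *Vasp* -0.12 to 0.46, *Twf1* -0.45 to 0.12, *Capza2* -0.15 to 0.26, *Vil1* -1.07 to 0.83, *Tmod1* -0.0623 to 0.0874, *Tmod3* -0.15 to 1.01, *Tpm1* -0.0583 to 1.12 and *Tpm2* -0.0987 to 0.19. The causes were not tested. With 2 arrays per group, the block leaves 1 residual degree of freedom, so changes of the size seen in 1 pair cannot be separated from differences between pools.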
